A study of Mus musculus with 12 samples.

Results

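S100a6 and 5 related genes of the S100 family, S100a4, S100a10, S100a11, S100a1 and S100a13, are described here across fetal blood progenitors of 4 mouse genotypes. The 6 genes were listed by symbol, 6 of the 19463 genes counted in the files, and each was summed per plate over the wells that held at least 1000 molecules. S100a6 was chosen by its level in double mutant against WT plates in earlier results of the same data, where it was higher. Its values in that comparison, and those of the other 5 genes, are therefore given as a description with no test.

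The samples were 12 plates of single cells of the LSK gate (no lineage markers, with Sca-1 and Kit), which takes in blood stem cells and multipotent progenitors, sorted from the livers of C57BL/6J fetuses at embryonic day 18.5. The 4 plates labelled double mutant carried homozygous Pcna K164R together with Rev1-/-, 2 plates carried homozygous Pcna K164R alone, 3 plates carried Rev1-/- alone, and 3 plates were WT at both loci. The lysine replaced in PCNA, the sliding clamp of DNA replication, is the residue that is ubiquitinated when replication stalls at damaged DNA, and Rev1 encodes a polymerase that helps copy past such damage. Plates were sorted in 3 sessions. Session 1 held 2 double mutant plates, both Pcna K164R plates and 1 WT plate, session 2 held 1 double mutant and 1 Rev1 knockout plate, and session 3 held 1 double mutant, 2 Rev1 knockout and 2 WT plates. The labels name no fetus for any plate, so errors and p-values describe how far plates of a genotype lay apart, and part of that may be technical.

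S100 proteins are small calcium-binding proteins of the EF-hand type that mostly act as dimers. Calcium opens a surface on the dimer that binds partner proteins such as annexins, myosin heavy chains and tropomyosins, and through these they take part in cell movement, membrane organisation and cell growth. S100a6 (calcyclin) was named for its link to the cell cycle and binds the calcyclin-binding protein Cacybp. S100a4 binds non-muscle myosin and is known from migrating cells. S100a10 is the exception that does not depend on calcium and pairs with annexin A2, S100a11 pairs with annexin A1, S100a1 is best known from heart muscle, and S100a13 takes part in the release of proteins that lack a signal peptide.

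All 6 genes lie on mouse chromosome 3. In the RefSeq annotation of GRCm38.p6, S100a4 (chr3:90603770-90606045) and S100a6 (chr3:90612894-90614414) are separated by S100a5 alone (chr3:90606480-90611784). S100a1 (chr3:90511034-90514330) and S100a13 (chr3:90514233-90524581) overlap by 98 bases, and 204 bases are common to their promoter windows. Whether the counting used strand is not given in the sources used here, so reads from their overlap cannot be assigned with certainty. S100a11 (chr3:93520496-93526288) and S100a10 (chr3:93555117-93564645) lie together farther along the chromosome. The promoter windows of S100a6 (chr3:90612644-90612943), S100a4 (chr3:90603520-90603819) and S100a11 (chr3:93520246-93520545) are shown because the first 2 genes were the members with the highest ratio of double mutant to WT level and the third lies in the other cluster and was found in most wells. RefSeq windows were found for 5 of the 6 members. Each runs on the plus strand from 250 bases before the annotated start to 50 bases after it, and capitals mark matches to 5 short motifs searched on both strands.
S100a6: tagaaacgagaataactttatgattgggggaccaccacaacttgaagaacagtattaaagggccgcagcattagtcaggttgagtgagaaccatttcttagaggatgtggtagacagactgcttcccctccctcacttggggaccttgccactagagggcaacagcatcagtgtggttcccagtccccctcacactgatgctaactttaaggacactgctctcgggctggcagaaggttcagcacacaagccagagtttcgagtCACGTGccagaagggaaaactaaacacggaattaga
S100a4: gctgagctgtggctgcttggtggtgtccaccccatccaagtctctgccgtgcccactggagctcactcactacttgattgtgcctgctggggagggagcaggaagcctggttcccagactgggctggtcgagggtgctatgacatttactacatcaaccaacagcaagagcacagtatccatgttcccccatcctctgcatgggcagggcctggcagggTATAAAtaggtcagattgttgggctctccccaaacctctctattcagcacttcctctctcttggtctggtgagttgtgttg
S100a11: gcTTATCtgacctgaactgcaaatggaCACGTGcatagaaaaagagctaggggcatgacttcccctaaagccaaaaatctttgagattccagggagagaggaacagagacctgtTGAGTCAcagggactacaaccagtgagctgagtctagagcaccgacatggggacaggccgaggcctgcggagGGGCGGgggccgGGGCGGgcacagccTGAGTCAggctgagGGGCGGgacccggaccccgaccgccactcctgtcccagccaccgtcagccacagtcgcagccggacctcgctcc
The motifs were the GATA box (GATAA), the E-box (CACGTG), the TATA box (TATAAA), the GC box (GGGCGG) and the AP-1 box (TGANTCA). No 2 matches overlapped. The S100a6 window held a single match, an E-box 14 bases after the start, and 7.17% of the 32544 mouse promoter windows hold that motif. The S100a4 window held a single TATA box beginning 31 bases before the start, a motif held by 13.6% of windows. The S100a11 window held 3 GC boxes (held by 35.9% of windows), 2 AP-1 boxes (7.79%), an E-box and a GATA box (25.3%). These matches describe the letters and are not measured binding sites.

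Of 4608 wells, 3088 passed the minimum of 1000 molecules and together held 65622242 unique molecular identifiers (UMIs), the random tags that count captured mRNA molecules. The double mutant plates kept 82 to 357 wells and 212938 to 11617420 UMIs each, and the other plates 171 to 381 wells and 2489661 to 8567277 UMIs. Double mutant replicate 3 was the thinnest, with a median of 1730 UMIs per kept well, so that 1 to 3 UMIs of a gene in it say little. Over all genes it also lay far from the other plates labelled double mutant, by values given with the processing below. Rev1 was checked first because it is the deleted gene. It had 1.29, 2.48 and 4.70 CPM (a gene's UMIs scaled to the plate's total) in double mutant replicates 1, 2 and 3, 6.00, 1.35 and 4.04 CPM in Rev1 knockout plates, 11.3 and 7.86 CPM in Pcna K164R plates and 11.0, 20.5 and 13.3 CPM in WT plates. In the library labelled double mutant replicate 4 there were 33 UMIs of Rev1, 13.7 CPM, a level within the WT plates, which goes against its label. Whether the counted 3′ tags of Rev1 lie in the deleted part is not given in the sources used here. The S100a6 comparisons and the list counts for double mutant against Rev1 knockout are therefore also given without this library. Kit was detected in 80.4% to 89.6% of wells of double mutant plates other than replicate 3 and in 87.1% to 96.1% of wells of the other genotypes. Ly6a, which encodes Sca-1, was at 19.6 to 29.4 CPM in the same 3 double mutant plates and at 44.7 to 108 CPM in the other genotypes. In double mutant replicate 3, Kit had 14 UMIs in 11 of 82 wells and Ly6a was listed at 0.

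S100a6 was higher in double mutant plates than in every WT plate. It had 746, 440, 4 and 130 UMIs in double mutant replicates 1, 2 and 3 and the library labelled double mutant replicate 4, which is 64.2, 45.5, 18.8 and 54.1 CPM. It had 16.5 and 31.0 CPM in Pcna K164R plates, 13.1, 15.8 and 8.08 CPM in Rev1 knockout plates and 10.1, 13.9 and 7.63 CPM in WT plates. The lowest double mutant value, that of replicate 3, rests on 4 UMIs and still lay above all WT and Rev1 knockout values, while the other 3 lay above every plate of the other genotypes. The means were 45.6 ± 19.5 CPM in double mutant (SD, n = 4), 23.8 ± 10.3 CPM in Pcna K164R (n = 2), 12.3 ± 3.91 CPM in Rev1 knockout (n = 3) and 10.53 ± 3.16 CPM in WT plates (n = 3).

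**Figure D1:**
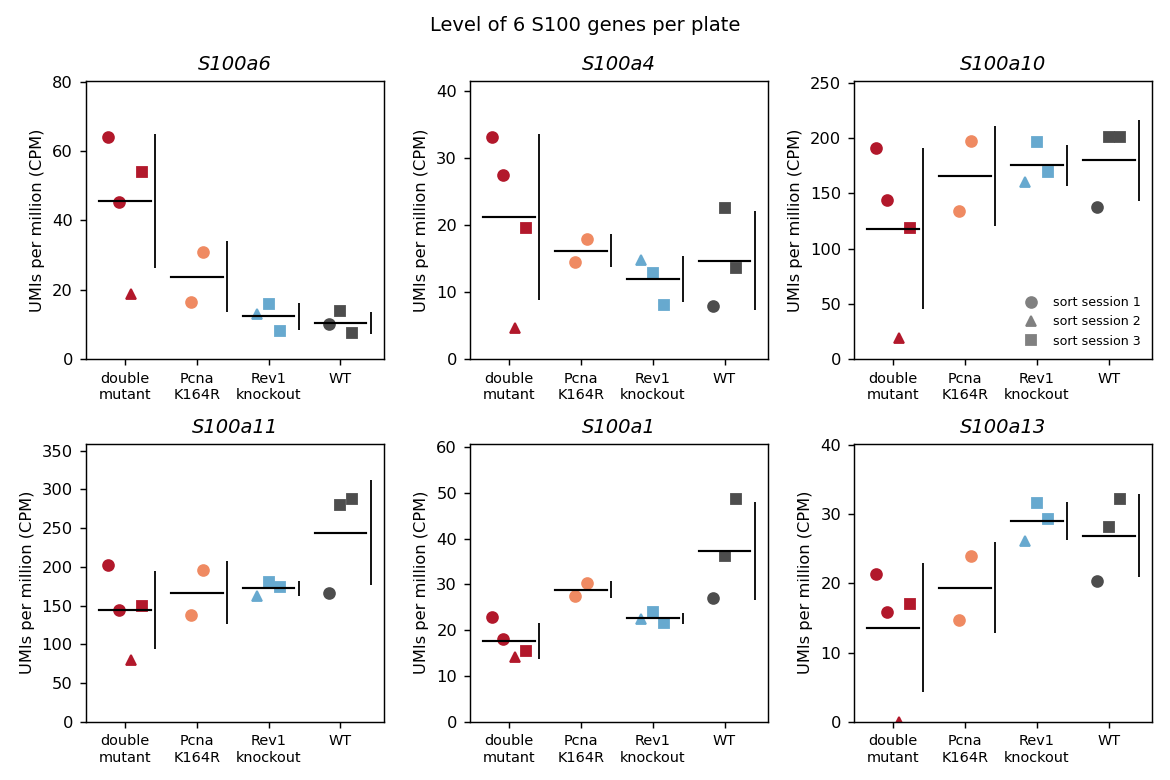
Level of the 6 S100 genes in CPM (vertical axes) in each plate by genotype, with marker shape for the sort session; horizontal bars are group means and vertical bars 1 SD. S100a6 reached 64.2 CPM in double mutant plates against at most 13.9 CPM in WT plates, while the plates of the genotypes overlap for S100a4, S100a10 and S100a11.

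S100a4, the neighbour of S100a6, had the next highest ratio. It had 386, 266, 1 and 47 UMIs in the 4 plates labelled double mutant, which is 33.2, 27.5, 4.70 and 19.6 CPM. It had 14.5 and 17.9 CPM in Pcna K164R plates, 14.7, 12.8 and 8.08 CPM in Rev1 knockout plates and 7.85, 22.6 and 13.7 CPM in WT plates. The 2 double mutant plates of session 1 lay above every other plate, the library labelled double mutant replicate 4 lay within the WT range, and replicate 3 rests on 1 UMI.

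S100a10 and S100a11, whose products pair with annexins, were found in most wells and overlapped between genotypes. S100a10 had 191, 144, 18.8 and 118 CPM in the 4 plates labelled double mutant, 134 and 198 CPM in Pcna K164R plates, 160, 196 and 169 CPM in Rev1 knockout plates and 137, 201 and 201 CPM in WT plates. S100a11 had 202, 144, 79.8 and 149 CPM in the 4 plates labelled double mutant, 138 and 196 CPM in Pcna K164R plates, 162, 181 and 173 CPM in Rev1 knockout plates and 166, 280 and 287 CPM in WT plates. For S100a10 the library labelled double mutant replicate 4 and the thin double mutant replicate 3, with 4 UMIs, lay below all plates of the other genotypes, and the other 2 double mutant plates lay among them. For S100a11 only replicate 3, with 17 UMIs, lay below the other genotypes, and the 2 WT plates of session 3 stood above all other plates.

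S100a1 and S100a13, whose genes overlap, had their lowest group means in double mutant plates. S100a1 had 22.9, 18.0, 14.1 and 15.4 CPM in the 4 plates labelled double mutant, 27.5 and 30.2 CPM in Pcna K164R plates, 22.4, 23.9 and 21.6 CPM in Rev1 knockout plates and 27.1, 36.1 and 48.6 CPM in WT plates. All double mutant and all Rev1 knockout plates lay below the lowest WT plate. S100a13 had 21.3, 15.9, 0 and 17.1 CPM in the 4 plates labelled double mutant, 14.7 and 24.0 CPM in Pcna K164R plates, 26.1, 31.6 and 29.3 CPM in Rev1 knockout plates and 20.4, 28.2 and 32.1 CPM in WT plates. Its count of 0 in double mutant replicate 3 allows a level of up to 14.1 CPM, from 3 UMIs, which covers counting error only.

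The differences between genotypes were fitted over 12221 genes with edgeR, with the sort session as a term. For double mutant against WT, which chose S100a6, the log2 fold changes were 2.43 ± 0.36 for S100a6, 1.01 ± 0.45 for S100a4, -0.30 ± 0.32 for S100a10, -0.35 ± 0.26 for S100a11, -0.74 ± 0.27 for S100a1 and -0.42 ± 0.33 for S100a13 (± SE). In that comparison 4.21% of all genes tested passed an adjusted p of 0.05, 1.8% higher and 2.41% lower, and the plates did not overlap for 1.14% of genes that were higher and 18.4% that were lower, shares from which nothing is read here about S100a6 or S100a1. The S100a6 value was 2.55 ± 0.46 within session 1 and 2.44 ± 0.45 within session 3, where the library labelled double mutant replicate 4 is the only double mutant plate. Leaving out that library gave 2.38 ± 0.51, and leaving out replicate 3 as well gave 2.54 ± 0.54. WT and double mutant plates never shared a flow cell, but plates of the other genotypes linked some flow cells, and with flow cell in place of session the S100a6 value was 2.85 ± 0.65. Double mutant replicate 3 and the library labelled double mutant replicate 4 shared a flow cell with no other plate, and WT replicate 1 had its own. With flow cell as a term these plates add nothing to differences between genotypes, so that value rests on the remaining plates. For S100a4 the value was 2.05 ± 0.33 within session 1 and 0.23 ± 0.43 within session 3, and it was 0.07 without WT replicate 1 and 2.05 without both doubted double mutant plates. For S100a1 it was -0.31 ± 0.27 within session 1 and -1.33 ± 0.33 within session 3, and for S100a11 it was 0.16 within session 1 and -0.79 within session 3. With the plate labelled double mutant replicate 4 left out, S100a1 was at -0.35 and S100a11 at -0.07. In sums over a plate, fewer cells with a gene and less of its RNA per cell cannot be told apart.

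**Figure D2:**
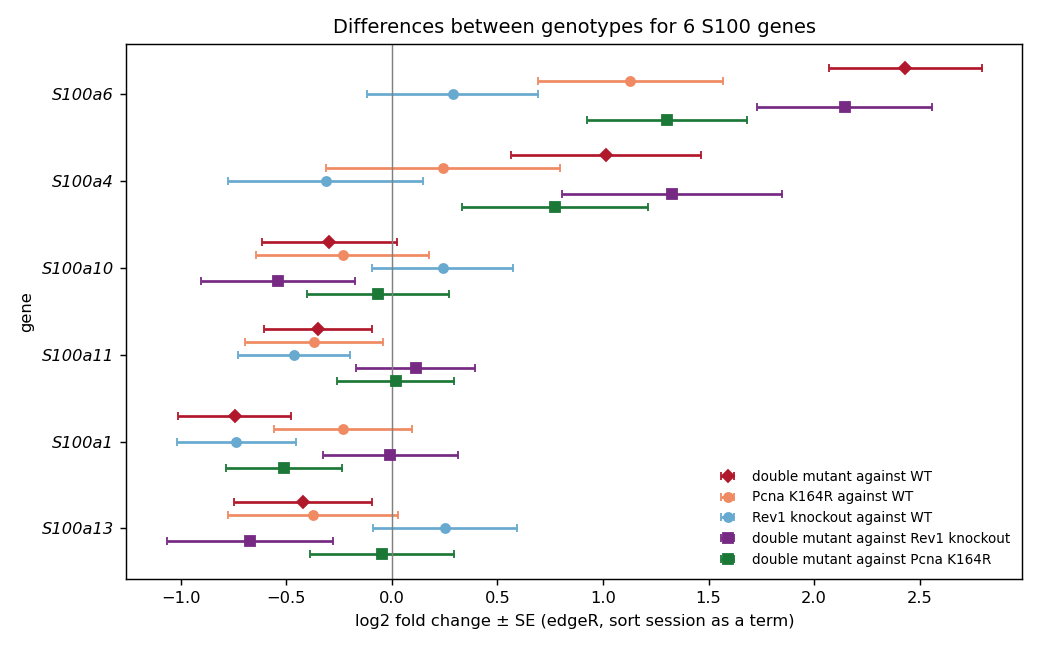
Log2 fold change (horizontal axis, edgeR with sort session as a term, bars ± SE) of each of the 6 genes in 5 of the 6 pairs of genotypes. S100a6 lies at 2.43 for double mutant against WT and at 2.14 for double mutant against Rev1 knockout, S100a4 at 1.01 and 1.33, and the values of the other 4 genes lie between -0.74 and 0.25.

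Against the Rev1 knockout plates, S100a6 was also higher in double mutant plates. This pair shares the double mutant plates that chose S100a6, so its p-values are not independent of that choice and are no separate support. The log2 fold change was 2.14 ± 0.41, adjusted p = 0.0314 by edgeR's quasi-likelihood test with Benjamini-Hochberg adjustment over all genes, with 4 of 4 double mutant plates above all 3 Rev1 knockout plates, as were those of 1.42% of all genes. This was the only member to pass of the 6, in a comparison in which 214 genes passed, 1.75% of all and 0.663% in the higher direction. S100a4 was at 1.33 ± 0.52, adjusted p = 0.195. The S100a6 call was lost when any 1 of 5 plates was left out, at 2.08 with adjusted p = 0.261 without the library labelled double mutant replicate 4, 2.17 with 0.0726 without double mutant replicate 2, 2.06 with 0.0517 without WT replicate 2, 2.48 with 0.10003 without Rev1 knockout replicate 2 and 1.78 with 0.0961 without Rev1 knockout replicate 3. It was also lost without both doubted double mutant plates, at 2.36 with adjusted p = 0.222, with flow cell in place of session, at 2.50 with 0.148, with wells thinned to 1000 UMIs, at 2.09 with 0.223, and with read counts in place of UMI counts, at 1.16 with 0.290.

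None of the 6 genes passed in the other 4 pairs. For double mutant against Pcna K164R, S100a6 was at 1.30 ± 0.38, adjusted p = 0.341, where 5 genes passed (0.0409%, all lower); it passed, at 1.33 with adjusted p = 0.00492, when no filter on low counts was used. For Pcna K164R against WT, S100a6 was at 1.13 ± 0.44, adjusted p = 1.00 by edgeR, where no gene passed (0%) although 239 genes had an unadjusted p under 0.05. For Rev1 knockout against WT, S100a6 was at 0.29 ± 0.41, adjusted p = 0.835, and no gene passed (0%), with 1116 at an unadjusted p under 0.05 and 66 passing with DESeq2. Pcna K164R and Rev1 knockout plates had no sort session in common, so with session as a term they were compared through the double mutant and WT plates; S100a6 was at 0.84 ± 0.52, adjusted p = 0.714, and again no gene passed (0%), with 908 at an unadjusted p under 0.05 and 17 passing with DESeq2. S100a1 was at -0.74 ± 0.28 for Rev1 knockout against WT, adjusted p = 0.524, with its 3 Rev1 knockout plates below all WT plates; in that pair 5.31% of all genes did not overlap in this direction and 5.93% in the other. All of these pairs draw on plates that chose S100a6 and are not independent of that choice.

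Wells with S100a6 were more frequent in double mutant plates at equal depth. As deposited, an S100a6 UMI was found in 59.7% (54.4 to 64.8%), 54.5% (48.3 to 60.5%), 4.88% (1.34 to 12.02%) and 39.3% (30.0 to 49.2%) of kept wells of the 4 plates labelled double mutant. The shares were 23.4% (19.1 to 28.2%) and 24.3% (19.4 to 29.7%) in Pcna K164R plates and 10.7% (7.57 to 14.6%), 21.6% (16.3 to 27.7%) and 12.3% (8.49 to 17.2%) in Rev1 knockout plates. They were 14.7% (11.3 to 18.7%), 9.18% (6.19 to 12.99%) and 9.94% (5.90 to 15.4%) in WT plates, with exact Clopper-Pearson intervals at 95% that cover counting error only. Since depth per well differed, the share expected at 5000 UMIs per well was computed for wells that reached that depth, 656 double mutant, 574 Pcna K164R, 695 Rev1 knockout and 719 WT wells. It was 26.0% and 19.4% in double mutant replicates 1 and 2 and 24.6% in the library labelled double mutant replicate 4. Pcna K164R plates had 8.17% and 11.0%, Rev1 knockout plates 4.19%, 8.17% and 4.26%, and WT plates 5.27%, 6.55% and 5.22%. Double mutant replicate 3 had only 9 such wells and no value at this depth. At 2000 UMIs its share was 5.83% over 31 wells, from a plate with 4 S100a6 UMIs in all, so it says little. At that depth the shares were 1.88% to 2.86% in WT, 1.66% to 3.71% in Rev1 knockout and 3.53% to 5.13% in Pcna K164R plates.

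At 5000 UMIs per well S100a4 was found in 14.4% ± 1.56 of double mutant wells (SD over 3 plates), 8.76% ± 0.747 of Pcna K164R wells (2 plates), 6.09% ± 1.16 of Rev1 knockout wells (3 plates) and 7.27% ± 2.28 of WT wells (3 plates). S100a10 was found in 50.8% ± 8.50 of double mutant, 56.2% ± 10.2 of Pcna K164R, 57.6% ± 4.73 of Rev1 knockout and 58.4% ± 7.65 of WT wells, and S100a11 in 51.9% ± 5.67, 55.7% ± 6.77, 58.0% ± 2.10 and 63.1% ± 4.18 of wells of these genotypes. S100a1 was found in 10.03% ± 0.453 of double mutant and 13.8% ± 0.825 of WT wells, and S100a13 in 9.48% ± 1.24 of double mutant and 13.4% ± 1.90 of WT wells.

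**Figure D3:**
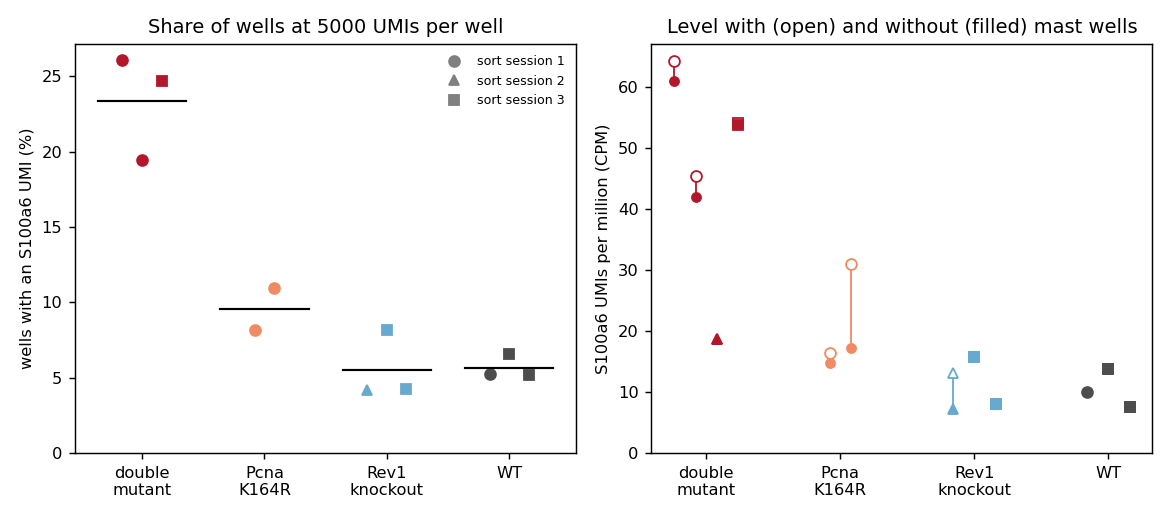
Left, share of wells with an S100a6 UMI expected at 5000 UMIs per well (vertical axis, %) for each plate with at least 20 such wells, with group means as bars. Right, S100a6 level (CPM) over all kept wells (open) and without mast wells, those with at least 1% of UMIs in 3 mast cell protease genes (filled). Double mutant plates lie at 19.4% to 26.0% against 5.22% to 6.55% in WT plates, and mast wells lower the level most in Pcna K164R replicate 2 and Rev1 knockout replicate 1.

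A few wells with mast cell genes held many of the S100a6 UMIs of single plates. Mast cells are granular immune cells whose granules store carboxypeptidase A3 (Cpa3), chymase (Cma1) and tryptase (Tpsb2). Wells with at least 1% of their UMIs in these 3 genes were set apart after it was seen that they held the highest S100a6 counts, and no well lay near that limit. The top S100a6 well held 38 S100a6 UMIs with 1079 Cpa3 UMIs in double mutant replicate 1, 32 with 677 in double mutant replicate 2, 26 with 431 in Pcna K164R replicate 2 and 26 with 1038 in Rev1 knockout replicate 1. In Pcna K164R replicate 2, 10 mast wells held 45.5% of the S100a6 UMIs of the plate, and in Rev1 knockout replicate 1, 2 mast wells held 44.4%. In double mutant replicates 1 and 2 they held 5.09% and 7.95%, in the library labelled double mutant replicate 4 0.769%, and in WT plates at most 1.37%. Rev1 knockout replicates 2 and 3 each had 1 mast well, with 0 S100a6 UMIs.

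Outside mast wells, S100a6 was at 61.1, 42.02, 18.8 and 53.7 CPM in the 4 plates labelled double mutant, 14.7 and 17.3 CPM in Pcna K164R plates, 7.34, 15.8 and 8.10 CPM in Rev1 knockout plates and 9.98, 13.9 and 7.63 CPM in WT plates. All 4 double mutant values then lay above every plate of the other 3 genotypes, for replicate 3 by 18.8 against 17.3 CPM and from 4 UMIs. Over all kept wells the double mutant and Pcna K164R plates overlapped. The share of all genes whose plates separate in this way without mast wells was not computed, so nothing is read from it. The log2 fold change of S100a6 was 2.45 ± 0.32 for double mutant against WT without mast wells, 2.27 ± 0.37 for double mutant against Rev1 knockout, 1.79 ± 0.34 for double mutant against Pcna K164R and 0.65 ± 0.39 for Pcna K164R against WT. Since these wells were picked by their S100a6 counts, these values are a description with no test. Leaving out the plate labelled double mutant replicate 4 as well gave 2.47 for double mutant against WT and 2.30 for double mutant against Rev1 knockout. In Pcna K164R replicate 1 the top S100a6 well was of another kind, with 17 S100a6 UMIs, 31 Klf1 UMIs and no Cpa3 UMI among 107048 UMIs, against a plate median of 21161.5 UMIs per well.

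Within plates, wells with S100a6 held less of the erythroid genes and more of the mast cell and stem cell genes than wells without it. Each well was thinned to 5000 UMIs, and the log2 ratio of a gene's level in wells with at least 1 S100a6 UMI over wells with none was taken per plate. The 5 plates with at least 20 wells of each kind were double mutant replicates 1 and 2, the library labelled double mutant replicate 4 and both Pcna K164R plates; no Rev1 knockout or WT plate had enough. Among 1747 genes read, the median ratio was -0.03, 9.22% were higher in all 5 plates and 26.2% were lower in all 5. These are ratios between wells of the same plates and carry no test.

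All 7 erythroid list genes that were read were lower in all 5 plates, with a list median of -1.99. Klf1, the transcription factor of the red cell programme, was at -2.55 (range -3.30 to -1.60 over plates), and Ermap, Blvrb and Rhd were at -2.25, -2.04 and -1.99. The list median was -2.35, -1.99 and -2.98 in the 3 plates labelled double mutant and -1.22 and -0.98 in the Pcna K164R plates. Among genes with at least 1 UMI per 10000 on average, the lowest were Beta-s, an adult beta globin, at -2.97, and Mt2, a metallothionein, at -2.91, followed by Klf1, the haem synthesis gene Cpox at -2.35, Ermap, the red cell membrane gene Rhag at -2.23, Mt1, Blvrb, Atp1b2 and Cited4. Cited4 was lower in only 3 of 5 plates, the other 9 in all 5.

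The stem cell list had a median of 0.51, with 11 of 12 genes above 0 and 3 higher in all 5 plates. Angpt1 was at 0.61, Mecom at 0.57, Hoxa9 at 0.56, Gata2 at 0.56 and Hlf at 0.54. The direction was shared by the 3 plates labelled double mutant, with list medians of 0.63, 0.47 and 1.12, but not by both Pcna K164R plates, at 0.21 and -0.16. Mllt3 was the gene with a median below 0, at -0.11. Gata2 was also found in mast wells, with 40 UMIs in the top S100a6 well of double mutant replicate 1. It was at 2.28 in Pcna K164R replicate 2, where Angpt1, Mecom, Hoxa9 and Hlf were all below 0.

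The mast cell and basophil list had a median of 2.80, with 6 of 6 genes above 0 and 2 higher in all 5 plates. Double mutant replicates 1 and 2 had only 1 and 2 mast wells, so ratios of the protease genes there can rest on single wells. In replicate 1, 93.5% of the Cma1 UMIs lay in 1 well. Tpsb2 was at 3.77, Cma1 at 3.55, Cpa3 at 3.30 and the histamine-forming enzyme Hdc at 2.30, which with Il1rl1 were the 5 highest of all genes at that level, followed by Basp1 at 1.24, Serpinb1a at 1.06, Cd63 at 0.93, Fxyd5 at 0.83 and Ctla2a at 0.79. In the library labelled double mutant replicate 4, Cpa3 was at -1.02 and the list median at -0.27, so the mast cell genes did not go with S100a6 there. The granulocyte-monocyte list was mixed, with a median of -0.21 and 4 of 10 genes above 0. In all 5 plates 4 of its genes were lower and 1 was higher. Among the lower were the granule protease genes Elane at -1.81 and Ctsg at -1.60 and the peroxidase gene Mpo at -0.99. The higher one was the transcription factor gene Gfi1, at 0.48. The neutrophil calprotectin gene S100a8, of the same family, was at -1.52 and lower in all 5 plates.

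**Figure D4:**
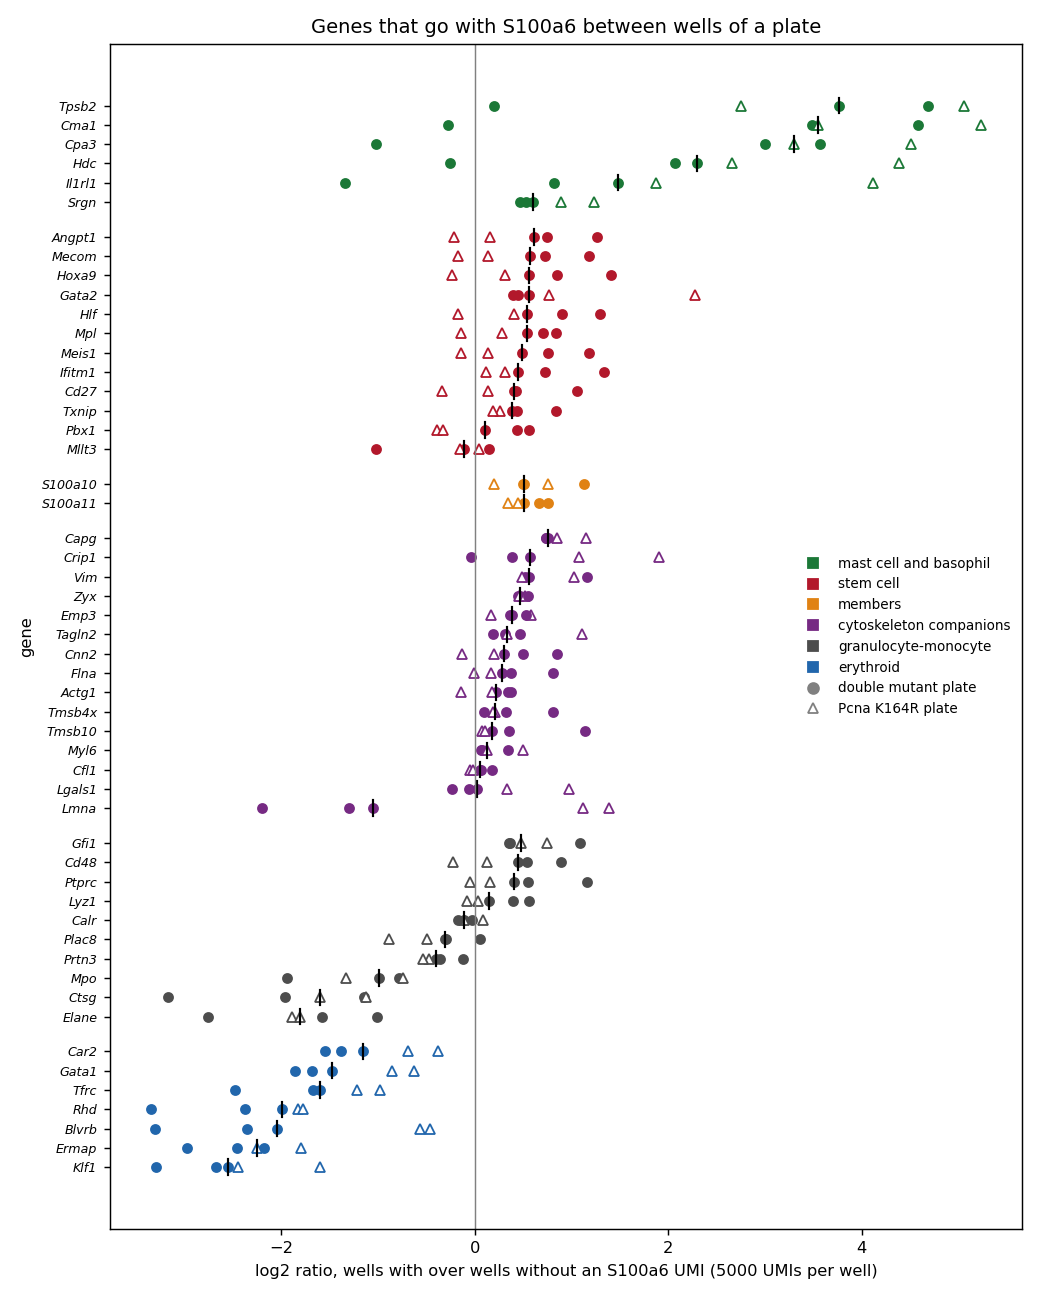
Log2 ratio of each gene's level in wells with over wells without an S100a6 UMI (horizontal axis, 5000 UMIs per well) for list genes that were read; each symbol is 1 plate (filled circles double mutant, open triangles Pcna K164R) and the black tick the median of 5 plates. All 7 erythroid genes lie below 0 in every plate, the mast cell genes reach 3.77 for Tpsb2, and 11 of 12 stem cell genes have a median above 0.

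Among the members, S100a10 and S100a11 were abundant enough to be read, and both were higher in wells with S100a6 in all 5 plates, by 0.51 each (ranges 0.20 to 1.13 and 0.34 to 0.76). Of 15 cytoskeleton genes read, 14 were above 0 and 8 were higher in all 5 plates, with a median of 0.28. The actin-capping gene Capg was at 0.76, the LIM protein gene Crip1 at 0.57 and vimentin (Vim) at 0.56. The nuclear lamina gene Lmna was the exception, at -1.30, -1.05 and -2.20 in the 3 plates labelled double mutant but 1.39 and 1.12 in the Pcna K164R plates. Of 20 partner genes read, 6 were higher and 5 lower in all 5 plates, where 9.22% and 26.2% of the 1747 genes were. The count of lower genes is near the share of all genes, so nothing is read from it. Anxa5 at 0.67 and Tpm4 at 0.56 were among the higher and Myh10 at -0.59 among the lower. Cacybp, singled out as the gene of the calcyclin-binding protein, was at -0.32 and also lower in all 5, and Ctsb was at -0.77 and lower in 4. When wells with at least 2 erythroid marker genes were left out, 4 plates could be read. The median of S100a10 and S100a11 was then smaller, at 0.17, with both still higher in every plate. That of 14 cytoskeleton genes was 0.10, with 9 above 0 and 4 higher in every plate, where 5.14% of all genes were.

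The relation was smaller when WT and Rev1 knockout plates were let in with at least 10 wells of each kind, a choice made after seeing the data. Over these 9 plates the erythroid list median was -1.08 and the stem cell median 0.30, and 4.39% of 1710 genes were lower and 1.99% higher in every plate. The mast cell and basophil median was 2.41, with 0 of 6 genes higher in every plate. Among the added plates, Cpa3 was at 7.53 and -3.09 in Rev1 knockout replicates 1 and 2 and at 1.15 and -0.71 in WT replicates 1 and 2. Klf1 was lower in all 9 plates, at -0.94 and -0.95 in WT replicates 1 and 2 and -0.41 and -1.22 in Rev1 knockout replicates 1 and 2. Hlf was above 0 in 8 of 9 plates, at 0.22 and 0.18 in these WT plates. When wells with at least 2 erythroid marker genes were left out, the erythroid median over the 2 genes still read in 4 plates was -0.13, a value this choice of wells itself brings toward 0, and the stem cell median was 0.12. Such wells made up 22.1%, 33.2% and 11.0% of double mutant replicates 1, 2 and 3 and 53.3% of the library labelled double mutant replicate 4, 16.9% and 15.4% of Pcna K164R plates, 3.36%, 3.76% and 10.3% of Rev1 knockout plates and 14.2%, 7.54% and 8.77% of WT plates. Without these wells the S100a6 log2 fold change was 2.89 ± 0.37 for double mutant against WT and 2.76 ± 0.43 for double mutant against Rev1 knockout (edgeR adjusted p = 0.0190). With the plate labelled double mutant replicate 4 also left out, these were 2.56 and 2.31 (adjusted p = 0.244 for the second). Of 19 erythroid list genes tested for double mutant against Rev1 knockout over all kept wells, 5 rose and 0 fell, where 0.663% and 1.09% of all genes did, with a list median of 1.87. With that plate left out 0 of the 19 passed and the median was 1.02.

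Split by single defining genes, also chosen after seeing the data, S100a6 was higher in double mutant than in WT plates among wells of the same kind, a comparison that carries no test. Hlf encodes a transcription factor of stem cells. In wells with an Hlf UMI among 5000, S100a6 was at 95.6 and 68.7 CPM in double mutant replicates 1 and 2 and 128 CPM in the library labelled double mutant replicate 4, 18.4 and 24.9 CPM in Pcna K164R plates, 8.64, 19.3 and 9.49 CPM in Rev1 knockout plates and 10.9, 14.96 and 8.38 CPM in WT plates. In wells without Hlf the medians were 25.1 CPM over 3 double mutant plates and 8.08 CPM over 3 WT plates. S100a6 was higher in Hlf wells in all 3 double mutant and all 3 WT plates, in 1 of 2 Pcna K164R and in 2 of 3 Rev1 knockout plates. S100a4 was higher in Hlf wells in 11 of 11 plates, with medians of 50.9 CPM in double mutant and 16.8 CPM in WT Hlf wells.

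In wells with a Klf1 UMI, S100a6 was at 13.8 and 5.28 CPM in double mutant replicates 1 and 2 and 11.6 CPM in the library labelled double mutant replicate 4, and at 1.93 CPM in WT replicate 1, the one WT plate with at least 10 such wells. In wells without Klf1 it was at 63.6 to 99.9 CPM in these double mutant plates and 12.2 CPM in that WT plate. Both S100a6 and S100a4 were lower in Klf1 wells in all 7 plates that could be read. In both Pcna K164R plates S100a6 had no UMI in Klf1 wells; the deep well of replicate 1 named above, with 17 S100a6 UMIs and 31 Klf1 UMIs, had no Klf1 UMI among its 5000 drawn and so was not counted there. In wells with C1qb, a macrophage gene, S100a6 was lower than in other wells in 7 of 7 plates, and in wells with Cpa3 it was higher in 5 of 6. A broader rule, at least 2 genes of the stem cell list, took in 2398 of 2644 wells and separates little; in those wells S100a6 had a median of 80.0 CPM over double mutant and 10.6 CPM over WT plates.

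**Figure D5:**
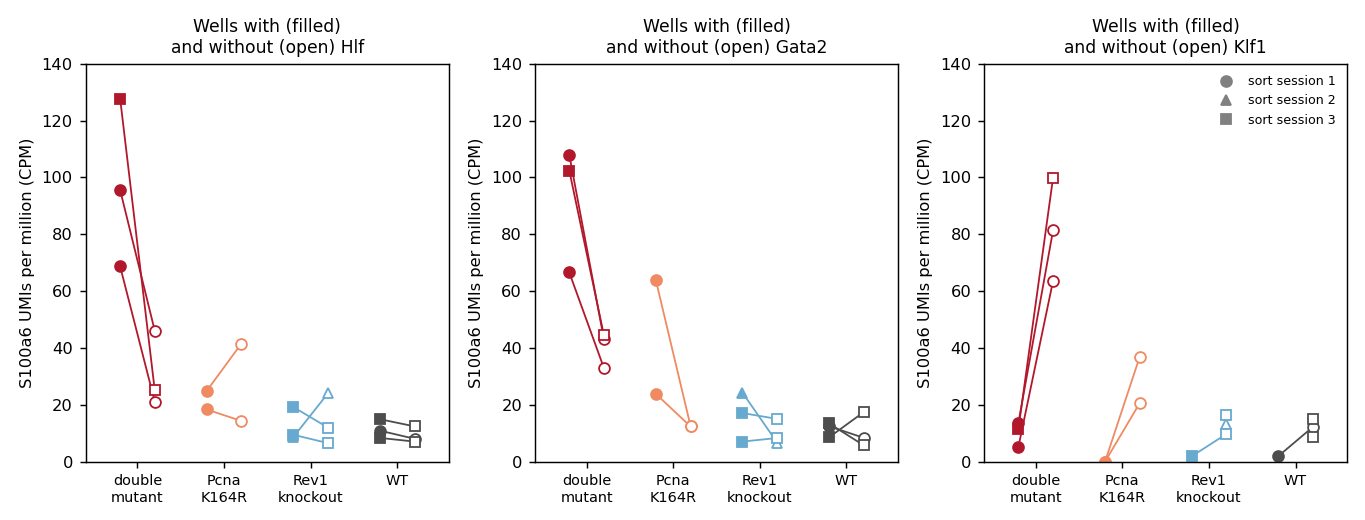
S100a6 level (CPM) in wells with (filled) and without (open) a UMI of Hlf, Gata2 or Klf1 among 5000, 1 line per plate, by genotype; a plate with fewer than 10 wells with the gene has an open symbol only. Hlf wells of double mutant plates lie at 68.7 to 128 CPM against 8.38 to 14.96 CPM in WT plates, and Klf1 wells lie lower than the other wells in all 7 plates shown.

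Over the 12 plates, S100a6 was most like genes of other families. The 10 genes with the highest Pearson correlation of log2 CPM with S100a6 were Llph (r = 0.945, Spearman's rho = 0.839), Dnajc6 (r = 0.930), Ppm1a, Ube2j1, Pbdc1, Asf1b, Mrpl16, Usp46, Mtch2 and Ankrd13c (r = 0.895, rho = 0.916), out of 12220 genes with a median r of -0.11. The points share depth, session and genotype, and S100a6 was chosen for its pattern, so these values carry no test. The order is unstable, since Spearman's rho kept 4 of the 10 among its first 10 and leaving out double mutant replicate 3 kept 1. Without the 2 plates with the most extreme S100a6 levels, double mutant replicate 1 and the library labelled double mutant replicate 4, r was 0.933 for Llph and 0.948 for Ankrd13c. S100a4 was at r = 0.687 and rank 392, while r was -0.23 for S100a10, -0.24 for S100a11, -0.32 for S100a13 and -0.48 for S100a1.

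Of 13 other S100 genes, 3 passed the filter on low counts, S100a8, S100a9 and S100a16, and none of these passed the test in any pair of genotypes. S100a8 was at 3.69 ± 1.64 for double mutant against Rev1 knockout, adjusted p = 0.245 by edgeR. The median of S100a8, S100a9 and S100a16 was 2.07 in that comparison and 6.91 with the plate labelled double mutant replicate 4 left out. The mean levels of S100a8 went the other way, at 72.3 ± 87.3 CPM in double mutant and 96.0 ± 119 CPM in Rev1 knockout plates (SD). Those of S100a9 did too, at 26.4 and 89.4 CPM, while S100a16 was at 3.69 ± 6.94 and 1.11 ± 1.01 CPM. The double mutant mean of S100a16 rests on 10 UMIs in all. Its highest plate value, 14.1 CPM, is the level that 3 UMIs give in the thin double mutant replicate 3, so this mean says little. S100a8 and S100a9 each had a Rev1 knockout plate at 0. Why the fit, with session as a term, differed in sign from the means was not tested. Of 36 partner genes 31 were tested and none passed in any pair, although 3 rose for double mutant against Rev1 knockout without double mutant replicate 3, where 2.28% of all genes did. The smallest p for double mutant against Rev1 knockout were those of tropomyosin 1 (Tpm1), at 0.82 ± 0.21 with adjusted p = 0.0770, Ahnak, which binds the S100a10 complex, at -2.83 ± 0.81 with 0.0991, Anxa6 at -0.72 ± 0.23 with 0.131 and Myh10 at 1.203 ± 0.40 with 0.134. The median of the partner list was 0.13, beside -0.02 over all genes tested in that comparison. Of 18 cytoskeleton genes 2 rose and 2 fell in double mutant against Rev1 knockout plates, where 0.663% and 1.09% of all genes did. These 4 are named after their values were seen. The LIM protein gene Crip2 rose by 3.41 ± 0.52 on the log2 scale with adjusted p = 0.0140 and Lmna by 2.54 ± 0.50 with 0.0342, while the actin-binding thymosin gene Tmsb10 was at -1.65 ± 0.29 with 0.0237 and zyxin (Zyx) at -1.52 ± 0.33 with 0.0416. None of the 4 passed with the plate labelled double mutant replicate 4 left out, where only 2 genes of all passed; Crip2 was then at 2.41 with adjusted p = 0.256, Lmna at 1.72 with 0.396, Tmsb10 at -1.35 with 0.205 and Zyx at -1.18 with 0.329.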

How the data were processed

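Per the labels' protocols, LSK cells were sorted into wells and libraries were made with SORT-seq, a method that tags mRNA with a well barcode and a UMI. BWA 0.7.15 and GRCm38 (mm10) are named, with no role, in the submitters' processing notes; no source used here gives the counter or the annotation. The authors deposited, per plate and well, UMI counts, read counts and transcript counts. The deposited transcript counts are an estimated count, equal to the UMI count where low and above it where high, and were rounded to whole numbers here.

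UMI counts were the main values. Wells with under 1000 UMIs outside the 90 ERCC spike-in rows were left out, and counts were summed per plate. All 12 tables number their wells 1 to 384, which are positions and not shared cells; no doublet caller was run. Plates of a genotype were not near-identical, with a lowest chi-square per degree of freedom of 8.11 over 13 pairs. Double mutant replicate 3 stood apart, at 131 to 373 against the other plates labelled double mutant, which were at 17.4 to 21.2 among themselves. Its TMM scaling factor in the tests below was 0.549, against 0.973 to 1.115 in the other plates. CPM are UMIs divided by the plate's total in kept wells, without further scaling. Tests used edgeR 4.0.16 in R 4.3.3 (TMM, default filter on low counts, quasi-likelihood F-test, genotype and session, all 12 plates), with Benjamini-Hochberg adjustment over 12221 genes; DESeq2 1.42.0 was an alternative. On simulated counts for double mutant against WT (11857 genes), 32% of 2-fold and 75% of 4-fold higher genes were recovered, with 10 false calls.

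Ratios between wells used 20 random draws of 5000 UMIs per well, a pseudocount of 0.1 UMI per 10000 and genes with at least 1 UMI per 10000 (list genes at least 0.5). The members, lists and tests were chosen with earlier results of these data known. Most genes were named by a rule: all members, up to 4 per list by p or by ratio, and the 10 most like S100a6 over plates or between wells. Some were named outside it, among them Hlf and Mllt3 of the stem cell list and Cacybp of the partner list. Promoter sequences are RefSeq's, on GRCm38.p6.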

Additional observations from a re-analysis of the deposited data

Results flagged for a closer look

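In S100a11, 1 of the 4 plates labelled double mutant stood far from the others in its share of wells with a UMI. The shares were 84.3%, 79.5% and 17.1% in double mutant replicates 1, 2 and 3 and 75.7% in the library labelled double mutant replicate 4, and the gap below the others was 0.872 of the whole range, above the critical value of 0.829 for 4 values. These shares are not at equal depth, and replicate 3 is the plate with a median of 1730 UMIs per well. At 1000 UMIs per well the expected shares were 18.1%, 13.8% and 9.28% in replicates 1, 2 and 3 and 18.2% in that library. Replicate 3 then lay nearer to the others, and the rule was not applied at that depth. Of 12 such sets of 4 plates 1 was marked, and chance marks about 1 in 20.

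S100a6 differed in direction between wells with and without Flt3, a gene of lymphoid-primed progenitors. It was higher in Flt3 wells in 3 of 3 double mutant plates with a value, the library labelled double mutant replicate 4 included, and in 0 of 2 Pcna K164R plates, with the median log2 ratios differing by 1.33. Likewise it was higher in 0 of 2 Pcna K164R plates and in 3 of 3 WT plates, a difference of -1.11. Neither difference was tested, and 94 such pairs were looked at. In Pcna K164R replicates 1 and 2, 11.3% and 45.5% of S100a6 UMIs lay in mast wells, and their part in this was not tested.

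Wells below 1000 UMIs, left out of every comparison except the alternative over all wells with a UMI, also held S100a6. There were 6 UMIs in 722 double mutant wells, 31.0 CPM, and 1 UMI in 295 WT wells, 14.3 CPM.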

How the results depend on the processing

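No paired analysis was possible because the labels give no replicate numbers that tie plates of different genotypes; the numbers only follow the order of deposit. For double mutant against WT, the S100a6 log2 fold change ranged from 2.29 to 2.67 when 1 plate was left out and moved by more than the SD between plates in 2 of 30 alternatives, to 2.89 without erythroid-marker wells and 2.85 with flow cell in place of session. For double mutant against Rev1 knockout it ranged from 1.78 to 2.48 with 1 plate left out, passing in 7 of 12 cases, and did not pass at 1.16 with read counts, 2.09 with wells thinned to 1000 UMIs, 2.50 with flow cell in place of session and 2.36 without double mutant replicate 3 and the library labelled double mutant replicate 4, nor at 2.30 and 2.31 when that library was left out together with mast wells or with erythroid-marker wells; the cause was not tested. With 1 plate left out, S100a6 ranged from 0.91 to 1.86 for double mutant against Pcna K164R, which passed at 1.33 without a filter on low counts, from 0.61 to 1.56 for Pcna K164R against WT, from -0.08 to 0.68 for Rev1 knockout against WT, with the sign turned, at -0.083, without Rev1 knockout replicate 2, and from 0.27 to 1.23 for Pcna K164R against Rev1 knockout. The double mutant share of wells with S100a6 was 4.11 times the WT share at 5000 UMIs, 3.51 times without thinning, and 3.88 to 4.46 times with 1 plate left out. The erythroid median of -1.99 became -0.13 without erythroid-marker wells and -1.08 with at least 10 wells of each kind. Genes passing for double mutant against WT numbered 514, against 1427 with DESeq2, 1199 without the filter, 95 with wells thinned to 1000 UMIs and likewise 95 without erythroid-marker wells, 1 with read counts, 0 with flow cell as the term, 1 within session 1, 1339 within session 3, 70 without double mutant replicates 3 and 4, and 12 to 2116 with 1 plate left out. For double mutant against Rev1 knockout they numbered 214, against 842 with DESeq2, 1109 without the filter, 74 with thinned wells, 78 without erythroid-marker wells, 0 with read counts, 13 with flow cell, 433 without a session term, 908 within session 3, 11 without both doubted plates and 2 to 619 with 1 plate left out. For double mutant against Pcna K164R they numbered 5, against 91 with DESeq2, 217 without the filter and 0 to 25 with 1 plate left out. For Rev1 knockout against WT, Pcna K164R against WT and Pcna K164R against Rev1 knockout none passed, against 66, 0 and 17 with DESeq2 and 323, 36 and 258 without the filter. With few UMIs of S100a6 in WT plates (19 to 73), depth limits these values.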
